A study of Homo sapiens with 6 samples.

Results

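Entry of pancreatic cancer cells into the cell cycle was examined through 10 genes, 3 neighbours on the short arm of chromosome 9 (CDKN2A, CDKN2B and MTAP) and 7 genes that act in the G1 phase (CDKN1A, CDKN1B, CCND1, CCND3, CDK4, CDK6 and RB1). The genes were taken by name, 10 of the 41768 genes of the table, and each was read in all 6 libraries. Poly(A)-selected RNA had been sequenced from 2 lines of pancreatic ductal adenocarcinoma (PDAC). PANC-1, an established human line known to have lost CDKN2A, had 2 libraries labelled siALDOA and 1 labelled NC. The line named 90 had the same numbers, and the labels do not say more of it than that it is a PDAC cell line. The label siALDOA is taken to mean an siRNA directed at ALDOA, which encodes the glycolytic enzyme aldolase A. The sources used here state neither the meaning of NC nor whether the numbers 1 and 2 mark separate siRNAs or a repeat. Separate cultures are not recorded for any group, so the p-values below reflect the spread of these 6 libraries, part of which may be technical.

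In G1, D-type cyclins such as the products of CCND1 and CCND3 bind the kinases CDK4 and CDK6, and the complexes phosphorylate the retinoblastoma protein, the product of RB1. Phosphorylation releases E2F factors, which switch on genes of DNA replication. The INK4 inhibitors encoded by CDKN2A and CDKN2B block CDK4 and CDK6, and p21 and p27, the products of CDKN1A and CDKN1B, act on cyclin-kinase complexes, mainly those of CDK2. CDKN2A also encodes ARF, read in another frame. In PDAC the CDKN2A region is often deleted, and the deletion can take MTAP, an enzyme of methionine salvage, with it.

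Values are FPKM, fragments per kilobase of gene scaled to library depth, so levels of different genes can be compared per length. Depth, recovered from the steps between low values, was 18.7 to 21.8 M fragments in PANC-1 and 17.8 to 19.5 M in 90 (M for mega). ALDOA was at 501 FPKM in siALDOA 1, 462 in siALDOA 2 and 906 in NC of PANC-1, and at 262 in siALDOA 1, 318 in siALDOA 2 and 726 in NC of 90. All 5 epithelial markers reached 1 FPKM in both lines (summed level 3390 to 4350 FPKM in PANC-1, 3950 to 5290 in 90). The keratin genes made up most of these sums, while CDH1 was at 1.18 to 2.05 FPKM in PANC-1 and 38 to 44.5 in 90, and EPCAM at 7.51 to 17.5 in PANC-1 and 88.6 to 154 in 90. Of the fibroblast and endothelial markers, 1 of 4 and 0 of 3 reached 1 FPKM in PANC-1, and 1 of 4 and 1 of 3 in 90. Their summed levels were 9.98 to 13.8 and 0.00781 to 0.0357 FPKM in PANC-1, and 1.22 to 1.71 and 3.65 to 3.83 in 90. COL1A2 and CDH5 were at 0 in all PANC-1 libraries. Of markers of leukocytes, CD68, a lysosomal protein of macrophages, was at 124 to 162 FPKM in PANC-1 and 31.3 to 51.2 in 90, while PTPRC and CD3E did not go above 0.0169 FPKM in PANC-1 or 0.0347 in 90. The part of these cell types in the results was not tested. The libraries shared a trend with base composition. Genes of low GC content were high in siALDOA 1 of 90 and siALDOA 2 of PANC-1 and low in siALDOA 1 of PANC-1, and this touches several of the 10 genes below.

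CDK4, CCND1 and CCND3 were abundant, and CDKN2A and CDKN2B were near 0. CDK4 was at 106 to 193 FPKM, CCND1 at 71.9 to 96.8, CDKN1A at 27.9 to 52.1 and CCND3 at 26.1 to 40.5. CDKN1B (6.18 to 23.8) and MTAP (4.24 to 10.3) stood lower. RB1 (0.413 to 20.4) and CDK6 (0.356 to 6.47) spread the most between libraries. CDKN2A did not go above 0.189 FPKM and CDKN2B not above 0.023. By mean over the 6 libraries the order was CDK4, CCND1, CDKN1A, CCND3, CDKN1B, RB1, MTAP, CDK6, CDKN2A and CDKN2B. Within that order the ranges of CDKN1A and CCND3 overlapped, as did those of CDKN1B, RB1 and MTAP, those of CDK6 and its neighbour MTAP, and those of CDKN2A and CDKN2B.

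**Figure D1:**
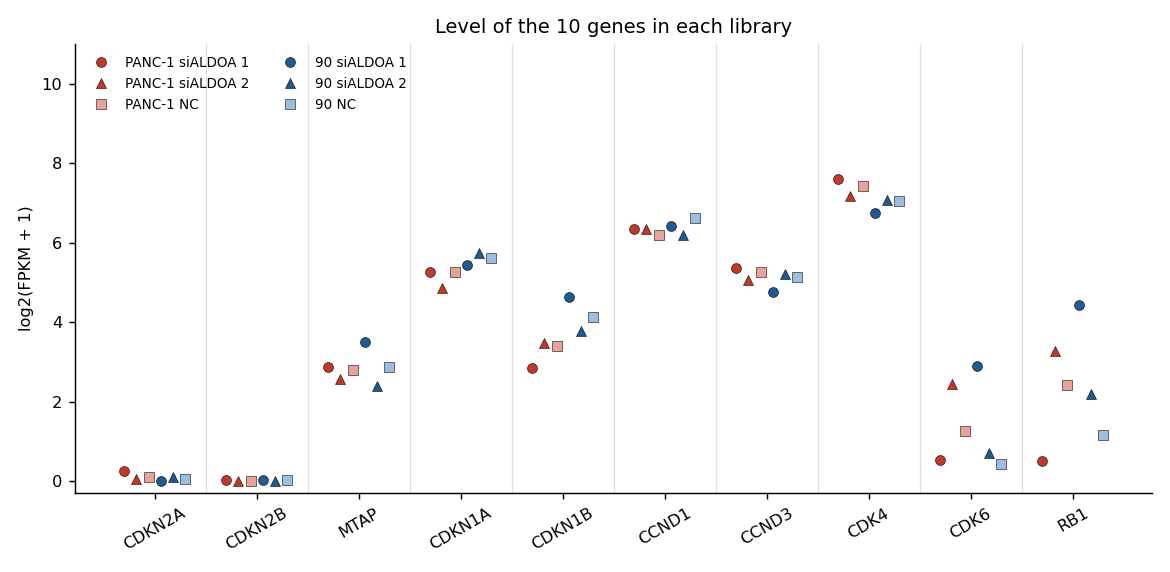
Level of each of the 10 genes, as log2(FPKM + 1), in the 6 libraries, with PANC-1 in red, 90 in blue and NC as pale squares. CDK4, CCND1 and CCND3 sit high and close together, CDKN2A and CDKN2B lie near 0, and RB1 and CDK6 spread over several log2 units within each line.

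CDKN2A was close to the limit of detection in both lines. It occupies chromosome 9, 21967753 to 21995301, minus strand (GRCh38, GENCODE v29), 30.1 kb from the end of MTAP and 7.602 kb from CDKN2B. It stood at 0.189 FPKM in siALDOA 1, 0.0368 in siALDOA 2 and 0.0668 in NC of PANC-1, and at 0 in siALDOA 1, 0.0724 in siALDOA 2 and 0.0388 in NC of 90. Fragment counts rebuilt from the values were 6, 1 and 2 in those PANC-1 libraries and 0, 2 and 1 in those of 90. A value of 3 fragments, the limit that a count of 0 allows, was 0.0946 to 0.116 FPKM for this gene. Only siALDOA 1 of PANC-1 lay above it, and this library had 23356 genes above 0 against 19171 to 20371 in the others. Pooled by line, 9 fragments in PANC-1 (exact Poisson 95% interval 4.12 to 17.1) stood against 3 in 90 (0.619 to 8.77). The ratio of PANC-1 to 90 per depth was 2.76, with an exact conditional 95% interval of 0.689 to 15.9 that covers counting error only, so no difference between the lines was detectable at this depth. The table has 1 row for the gene, which does not separate the transcript of the INK4 inhibitor from that of ARF.

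CDKN2B, from 22002903 to 22009363 on the minus strand of the same chromosome, was as low. It had 2 fragments in siALDOA 1 of PANC-1, 0 in siALDOA 2 and 0 in NC, and 1 in siALDOA 1, 0 in siALDOA 2 and 1 in NC of 90, at most 0.023 FPKM. MTAP, from 21802543 to 21937651 on the plus strand, was present in all libraries. It was at 6.33 FPKM in siALDOA 1, 4.94 in siALDOA 2 and 5.9 in NC of PANC-1, against 10.3 in siALDOA 1, 4.24 in siALDOA 2 and 6.34 in NC of 90. The lines overlapped, with the highest and the lowest library both in 90. RNA levels alone do not show whether the DNA of CDKN2A is present, and copy number was not analysed here. In bulk RNA of 90, a low level in every cell and expression in few cells cannot be told apart. PANC-1 is known to have lost CDKN2A, and the origin of the CDKN2A fragments in that line was not tested.

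The windows around the transcription starts show how the barely detected and the expressed genes of the locus begin. Each covers 300 bases, most of them upstream of a start, on the strand of the gene (RefSeq, GRCh38.p14), and capitals mark the GC box GGGCGG, in either orientation, a motif bound by SP1. CDKN2A has 2 starts in the table, the upstream one used for ARF and the downstream one for the INK4 inhibitor.
MTAP, chr9:21802386-21802685, plus strand: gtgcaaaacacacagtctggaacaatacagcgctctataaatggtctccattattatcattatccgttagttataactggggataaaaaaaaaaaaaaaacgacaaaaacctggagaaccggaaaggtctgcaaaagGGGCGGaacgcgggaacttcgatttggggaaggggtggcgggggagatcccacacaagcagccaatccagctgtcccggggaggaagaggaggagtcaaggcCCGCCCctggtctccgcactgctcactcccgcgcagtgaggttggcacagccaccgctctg
CDKN2A upstream start, chr9:21995275-21995574, minus strand: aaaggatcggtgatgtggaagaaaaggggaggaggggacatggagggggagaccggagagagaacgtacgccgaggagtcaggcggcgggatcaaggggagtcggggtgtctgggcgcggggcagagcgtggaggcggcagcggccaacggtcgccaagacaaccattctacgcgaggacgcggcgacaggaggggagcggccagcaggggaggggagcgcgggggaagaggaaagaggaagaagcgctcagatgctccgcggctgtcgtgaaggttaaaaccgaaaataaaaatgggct
CDKN2A downstream start, chr9:21974808-21975107, minus strand: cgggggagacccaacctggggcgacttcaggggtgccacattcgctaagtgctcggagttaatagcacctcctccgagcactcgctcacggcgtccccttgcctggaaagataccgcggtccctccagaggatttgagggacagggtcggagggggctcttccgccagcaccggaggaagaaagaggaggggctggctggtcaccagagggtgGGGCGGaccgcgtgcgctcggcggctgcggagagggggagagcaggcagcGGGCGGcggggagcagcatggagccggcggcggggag
CDKN2B, chr9:22009256-22009555, minus strand: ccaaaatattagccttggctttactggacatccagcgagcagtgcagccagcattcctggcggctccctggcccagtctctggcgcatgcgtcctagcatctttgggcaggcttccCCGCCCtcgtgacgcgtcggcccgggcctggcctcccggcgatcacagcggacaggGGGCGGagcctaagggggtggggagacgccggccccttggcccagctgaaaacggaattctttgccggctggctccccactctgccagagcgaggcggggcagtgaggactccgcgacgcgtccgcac
The MTAP window was the least rich in GC, at 53%, against 63.3% and 69% for the CDKN2A starts and 67.3% for CDKN2B. It held 15 CpG pairs, against 28 and 26 for CDKN2A and 25 for CDKN2B. GC boxes numbered 2 in MTAP, 0 at the upstream and 2 at the downstream start of CDKN2A, and 2 in CDKN2B. Of 34943 such windows in the table, 44.9% held at least 1 GC box and 26.7% at least 2, so these counts are common. These windows were read from the reference, and methylation and factor binding were not analysed here.

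The antisense gene of the locus was lower in every PANC-1 library than in any 90 library. Of all tested genes, 54.1% had lines that did not overlap, in either direction. CDKN2B-AS1, a long noncoding RNA also called ANRIL, runs from 21994778 to 22121097 on the plus strand, over CDKN2B and the upstream end of CDKN2A. It was at 0.0119 FPKM in siALDOA 1 and 0 in siALDOA 2 and NC of PANC-1, and at 1.43 in siALDOA 1, 0.644 in siALDOA 2 and 0.337 in NC of 90. Rebuilt counts came to 1 fragment in PANC-1 against 177 in 90, a ratio of 0.0052 per depth (exact conditional 95% interval 0.000131 to 0.0293, counting error only). Its mean was under the filter on low values, so it was not among the tested genes. The sources used here do not say whether fragments were counted by strand. Reads of CDKN2B-AS1 and of the genes it overlaps therefore cannot be told apart for certain, and the gene was singled out after its values were seen.

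Around the locus the lines differed at many genes. Within 5 Mb of CDKN2A the table had 62 genes, 28 of them at 0 in all libraries and 19 at 1 FPKM or more in at least 1. Of the 15 tested, 2 were called higher and 6 lower in PANC-1 by limma, against 20.4% higher and 18.4% lower of all 12592 tested genes (38.8% called in all). Their median log2 difference was -1.10, against 0.13 over all tested genes. After median-ratio scaling the median over all tested genes was 0.02, and 1 neighbour was called higher and 7 lower. RPS6, a protein of the small ribosomal subunit, was at 406 FPKM in siALDOA 1, 393 in siALDOA 2 and 442 in NC of PANC-1, against 1830, 1620 and 2190 in those of 90 (log2 difference -2.17, SE 0.118, adjusted p = 2.99e-04). RRAGA, a Rag GTPase that recruits mTORC1 to lysosomes, was at 18.2 to 20.3 FPKM in PANC-1 and 66.9 to 85.4 in 90 (-1.94, SE 0.144, adjusted p = 6.85e-04). MIR31HG, the host transcript of miR-31, was at 6.18 to 7.82 FPKM in PANC-1 and 54.4 to 55.4 in 90 (-2.77, SE 0.133, adjusted p = 2.33e-04). IFNWP19, an interferon pseudogene that overlaps MIR31HG on the other strand, had the same difference of -2.77 (SE 0.143, adjusted p = 2.60e-04) and may hold the same reads. RPS6 has processed pseudogenes elsewhere, so its value is uncertain too.

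On the higher side were PLIN2, which coats lipid droplets, and KHSRPP1, a processed pseudogene whose reads can come from its parent gene. PLIN2 was at 31.7 to 41.9 FPKM in PANC-1 and 19.7 to 26.7 in 90 (log2 difference 0.67, SE 0.186, adjusted p = 0.0411). KHSRPP1 was at 1.39 to 6.33 in PANC-1 and 0.0804 to 0.136 in 90 (1.82, SE 0.446, adjusted p = 0.0286), so it passed the filter only through PANC-1. Neither call held without either NC library (adjusted p = 0.113 to 0.197), and that of KHSRPP1 was also lost without siALDOA 1 or 2 of 90, that of PLIN2 without siALDOA 1 of 90 or siALDOA 1 or 2 of PANC-1 (0.0595 to 0.111). Without either NC library no neighbour was called higher and 5 were called lower. The nearest protein-coding genes were MTAP on the side of the short-arm end and CDKN2B on the other, and beyond CDKN2B came DMRTA1, at 0.557 to 1.27 FPKM in PANC-1 and 0.807 to 2.70 in 90. MTAP and DMRTA1, on either side of the INK4 genes, were measured in all 6 libraries.

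**Figure D2:**
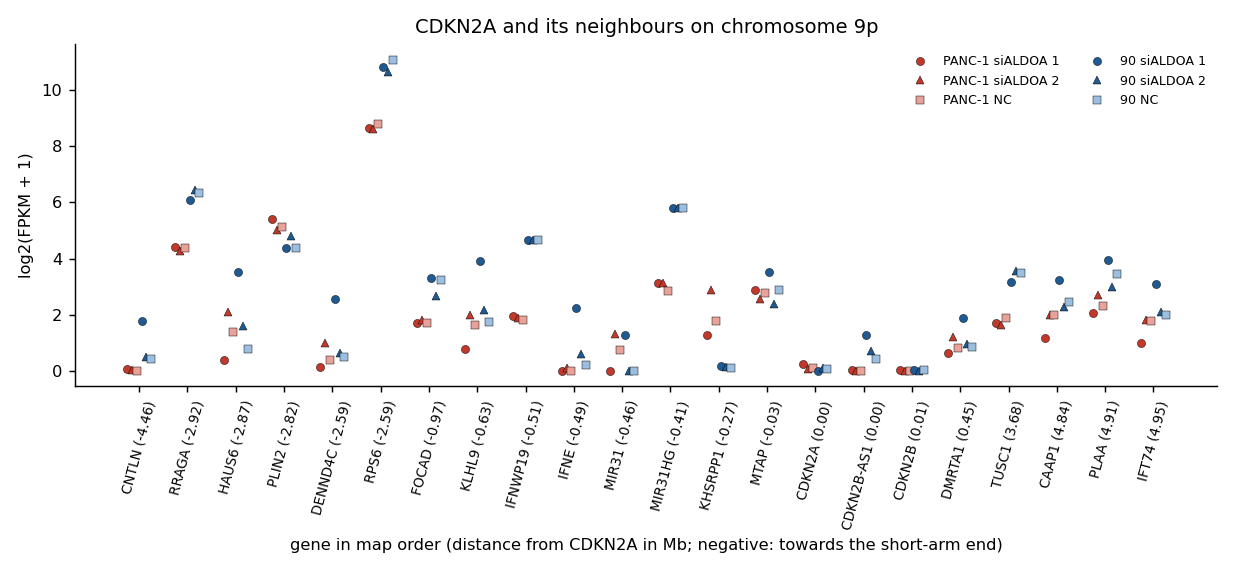
CDKN2A, CDKN2B, MTAP and the 19 neighbours that reach 1 FPKM in any library, as log2(FPKM + 1), in map order, with the distance from CDKN2A in Mb. RPS6, RRAGA and MIR31HG are higher in the 90 libraries (blue) than in PANC-1 (red), MTAP overlaps between the lines, and CDKN2A and CDKN2B lie near 0 in both.

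Of the 10 genes, the expressed inhibitors CDKN1A and CDKN1B were lower in every PANC-1 library than in any 90 library. Such separation of the lines was seen in 54.1% of all tested genes. Among inhibitor genes outside the 10, CDKN2C was higher in PANC-1 and CDKN2D lower. CDKN1A, the gene of p21 (chromosome 6, 36676460 to 36687339, plus strand), was at 37.7 FPKM in siALDOA 1, 27.9 in siALDOA 2 and 37.5 in NC of PANC-1, against 42 in siALDOA 1, 52.1 in siALDOA 2 and 48.3 in NC of 90. The lowest 90 library and the highest PANC-1 library were close. The means were 34.4 ± 5.63 FPKM in PANC-1 and 47.5 ± 5.06 in 90 (SD, n = 3 each), and the log2 difference of -0.46 (SE 0.173) did not pass limma's adjustment over all tested genes (adjusted p = 0.0961). CDKN1B (chromosome 12, 12715058 to 12722371, plus strand) was at 6.18 FPKM in siALDOA 1, 10.1 in siALDOA 2 and 9.5 in NC of PANC-1, against 23.8 in siALDOA 1, 12.6 in siALDOA 2 and 16.5 in NC of 90. Here too the groups did not overlap, and 90 varied more within itself. Its means were 8.6 ± 2.11 FPKM in PANC-1 and 17.6 ± 5.65 in 90 (SD, n = 3 each), with a log2 difference of -0.94 (SE 0.310, limma adjusted p = 0.0684).

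CDK4 ran the other way and was higher in PANC-1. The gene (chromosome 12, 57747727 to 57756013, minus strand) was at 193 FPKM in siALDOA 1, 144 in siALDOA 2 and 170 in NC of PANC-1, against 106 in siALDOA 1, 134 in siALDOA 2 and 131 in NC of 90. All 3 PANC-1 libraries stood above all 3 of 90. Means were 169 ± 24.3 FPKM in PANC-1 and 124 ± 15.1 in 90 (SD, n = 3 each), and the log2 difference of 0.45 (SE 0.168) did not pass (limma adjusted p = 0.0964). The CDK4 window at the transcription start, shown because it is the most abundant of the 10 genes, has the sequence CACGTG (capitals), the E box bound by MYC and related factors.
CDK4, chr12:57752261-57752560, minus strand: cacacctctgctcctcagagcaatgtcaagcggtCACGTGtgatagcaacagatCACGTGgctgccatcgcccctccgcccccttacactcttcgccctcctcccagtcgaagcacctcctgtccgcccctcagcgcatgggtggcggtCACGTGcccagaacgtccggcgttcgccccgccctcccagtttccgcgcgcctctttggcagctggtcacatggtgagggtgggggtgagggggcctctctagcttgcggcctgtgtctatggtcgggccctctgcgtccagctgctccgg
It held 3 matches, where 7.2% of the 34943 RefSeq windows (GRCh38.p14) held at least 1 and 0.1% at least 3; the motif reads the same on both strands. A match is a run of letters and does not show that a factor was bound in these cells.

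In all, 0 of the 8 tested genes were called between the lines, against 38.8% of all tested genes (4882 of 12592; 2424 without 90 NC and 2422 without PANC-1 NC). An unadjusted p under 0.05 was seen for 3 of the 8 (CDKN1A, CDKN1B and CDK4), against 47.3% of all tested genes. The lines did not overlap for the same 3, against 54.1% of all tested genes. CDKN1A, CDKN1B and CDK4 kept their differences of -0.46, -0.94 and 0.45 when the GC trend within each line was taken out, and each then passed (limma adjusted p = 0.00736, 0.033 and 0.00821). By construction that correction leaves the mean of a line almost as it was and lowers the spread within it. It called 6267 of 11405 tested genes, so passing was common in that fit. Without siALDOA 1 of 90 and siALDOA 2 of PANC-1, left out after the data were seen, the 3 genes also passed (-0.41, -0.83 and 0.45, limma adjusted p = 0.0445, 0.0266 and 0.0271). That fit called 4958 of 12592 tested genes. CDKN1A and CDK4 passed as TPM (limma adjusted p = 0.0389 and 0.0308), and CDKN1B passed after median-ratio scaling (-1.07, adjusted p = 0.0284) and quantile normalization (-0.99, 0.0317). Of the 12592 tested genes, 5320 were called as TPM, 3700 after median-ratio scaling and 4286 after quantile normalization. The calls of the 3 genes therefore moved with the processing. Their directions held in all 20 alternatives fitted, but this was largely fixed beforehand. The filters, the blocks, the fit without a trend and the GC correction left the line differences as they were. The lines did not overlap for these genes, so leaving out libraries could hardly turn a sign.

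**Figure D3:**
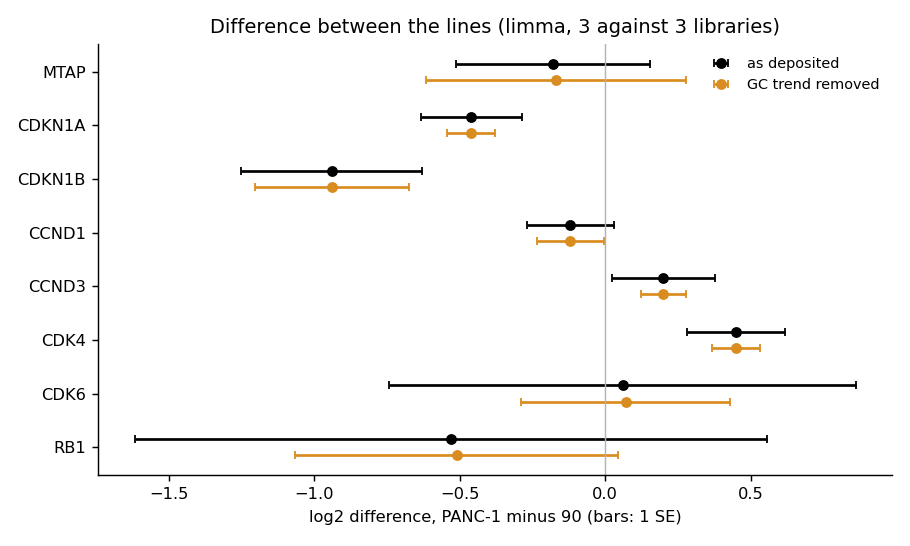
Log2 difference between PANC-1 and 90 for the 8 tested genes, with bars of 1 SE from the limma fit, as deposited (black) and with the GC trend within each line removed (orange). CDKN1A, CDKN1B and CDK4 keep their differences of -0.46, -0.94 and 0.45 with shorter bars, and the bars of RB1 and CDK6 cross 0.

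CCND1 and CCND3 showed no difference between the lines beyond their spread. CCND1 (chromosome 11, 69641087 to 69654474, plus strand), the mitogen-induced cyclin D1 gene, was at 79.6 FPKM in siALDOA 1, 80.1 in siALDOA 2 and 71.9 in NC of PANC-1, against 85 in siALDOA 1, 72.4 in siALDOA 2 and 96.8 in NC of 90. The PANC-1 libraries lay close together, in or just under the lower part of the range of 90. The log2 difference was -0.12 (SE 0.148, limma adjusted p = 0.579), and it turned to 0.03 without either NC library. CCND3 (chromosome 6, 41934933 to 42050357, minus strand) was at 40.5 FPKM in siALDOA 1, 32.4 in siALDOA 2 and 37.5 in NC of PANC-1, against 26.1 in siALDOA 1, 36 in siALDOA 2 and 34.1 in NC of 90 (log2 difference 0.20, SE 0.178, adjusted p = 0.451). CCND1 made up 65.7% to 71.1% of the summed FPKM of the D cyclin genes in PANC-1 and 65.6% to 73.5% in 90, so its share overlapped between the lines.

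CCND2, the third D cyclin gene, was lower in PANC-1. It was at 0.0632 FPKM in siALDOA 1, 0.0982 in siALDOA 2 and 0.126 in NC of PANC-1, against 4.47 in siALDOA 1, 1.98 in siALDOA 2 and 3.8 in NC of 90. Every 90 library stood above every PANC-1 library, and the gene passed the filter on low values only through 90 (log2 difference -1.97, SE 0.274, limma adjusted p = 0.00466). MTAP did not differ between the lines beyond its spread (log2 difference -0.18, SE 0.333, adjusted p = 0.733), and its sign turned to 0.15 without siALDOA 1 of 90.

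RB1 and CDK6 varied more between libraries of a line than between lines. RB1 (chromosome 13, 48303726 to 48599436, plus strand) was at 0.413 FPKM in siALDOA 1, 8.62 in siALDOA 2 and 4.36 in NC of PANC-1, against 20.4 in siALDOA 1, 3.59 in siALDOA 2 and 1.23 in NC of 90. The rebuilt counts behind these values ran from 43 to 1897 fragments, so counting error is small beside the spread. CDK6 (chromosome 7, 92604921 to 92836594, minus strand) was at 0.441 FPKM in siALDOA 1, 4.42 in siALDOA 2 and 1.38 in NC of PANC-1, against 6.47 in siALDOA 1, 0.626 in siALDOA 2 and 0.356 in NC of 90, from 75 to 1492 fragments. Both genes had their top library in siALDOA 1 of 90, and in PANC-1 siALDOA 1 was lowest and siALDOA 2 highest. The log2 differences between PANC-1 and 90 were -0.53 for RB1 (SE 1.09, limma adjusted p = 0.759) and 0.06 for CDK6 (SE 0.803, 0.966). The sign of RB1 turned without siALDOA 1 of 90 (0.36) or siALDOA 1 of PANC-1 (0.52). That of CDK6 turned without either NC library (-0.32 each), without siALDOA 2 of 90 (-0.46) and without siALDOA 2 of PANC-1 (-0.38).

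Few genes swung as far as RB1. On the log2 scale the 3 libraries of 90 spanned 3.26 for RB1, a span that 0.3% of tested genes reached, and those of PANC-1 spanned 2.77, reached by 1.8%. For CDK6 the spans were 1.91 in PANC-1 (reached by 8%) and 2.46 in 90 (2.4%), while the median of all tested genes was 0.4 in PANC-1 and 0.45 in 90. CCND1 was among the steadier genes, with spans of 0.15 in PANC-1 and 0.42 in 90, reached by 91% and 55% of tested genes. The ratio of CDK4 to CDK6 swung with CDK6, to 437 in siALDOA 1, 32.6 in siALDOA 2 and 123 in NC of PANC-1, and to 16.4 in siALDOA 1, 213.5 in siALDOA 2 and 367 in NC of 90. CDK4 exceeded CDK6 per length in every library.

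The swings ran along the GC content of the transcripts. RB1 and CDK6 were among the poorest of the 10 genes in GC, at 37.3% and 39.5% of the longest GENCODE transcript, with MTAP at 39.1%. The others tested were richer, CDKN1B at 47.7%, CCND1 at 50.3%, CDK4 at 53.6%, CCND3 at 56.2% and CDKN1A at 58.1%. Tested genes within 2 percentage points of RB1 had median log2 changes from NC of -1.02 and 0.58 in siALDOA 1 and 2 of PANC-1, and of 1.43 and 0.11 in those of 90. RB1 itself changed by -1.92 and 0.85 in siALDOA 1 and 2 of PANC-1, and by 3.26 and 1.04 in those of 90, farther than the median of genes of like GC in all 4 libraries. CDK6 changed by -0.73 and 1.19 in PANC-1 and by 2.46 and 0.26 in 90, against medians of -0.78 and 0.53 in PANC-1 and 1.12 and -0.02 in 90. With the GC trend taken out, RB1 still lay at -0.92 and 0.27 in PANC-1 and at 1.90 and 0.94 in 90.

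MTAP lay outside the quartiles of genes of like GC in every siALDOA library but siALDOA 1 of 90, where the quartiles were 0.55 and 1.91. It changed by 0.09 and -0.21 in siALDOA 1 and 2 of PANC-1, against medians of -0.83 and 0.54 for genes of like GC, and by 0.63 and -0.49 in those of 90, against 1.19 and 0. The GC value of MTAP comes from a transcript of 7557 bases, while its FPKM steps fit a length of 4922 bases, so its GC content is uncertain. CDKN1B, too, was highest in siALDOA 1 of 90 and had siALDOA 1 lowest and siALDOA 2 highest in PANC-1, an order held by 28.1% of all tested genes, though its NC of 90 stood above siALDOA 2, unlike that of RB1 and CDK6.

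**Figure D4:**
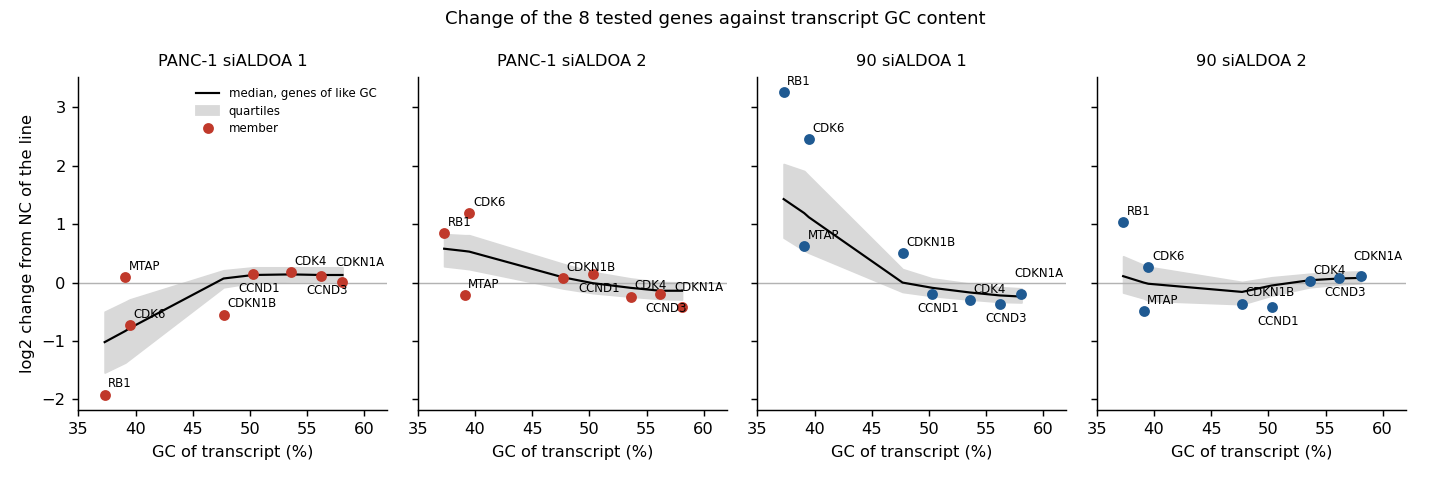
Log2 change of the 8 tested genes from NC of their line in each siALDOA library, against the GC content of the transcript in percent, with the median and quartiles of tested genes within 2 percentage points of each. RB1 reaches -1.92 in siALDOA 1 of PANC-1 and 3.26 in siALDOA 1 of 90, outside the quartiles of genes of like GC, while CDK4, CCND3 and CDKN1A stay within 0.42 of 0.

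The coding sequences show where the poor GC lies. The middle 120 coding bases of RB1, CDK6 and CDK4 are given with G and C in capitals (GENCODE v29, coding strand). CDK4 is shown as the related kinase that varied less between libraries than CDK6.
RB1, coding bases 1333 to 1452: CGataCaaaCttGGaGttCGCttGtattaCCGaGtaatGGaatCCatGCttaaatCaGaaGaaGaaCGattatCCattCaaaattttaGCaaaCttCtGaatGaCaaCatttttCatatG
CDK6, coding bases 430 to 549: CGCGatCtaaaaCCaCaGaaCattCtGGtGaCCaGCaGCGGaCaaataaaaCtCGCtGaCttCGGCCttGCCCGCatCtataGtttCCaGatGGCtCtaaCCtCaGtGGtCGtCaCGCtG
CDK4, coding bases 394 to 513: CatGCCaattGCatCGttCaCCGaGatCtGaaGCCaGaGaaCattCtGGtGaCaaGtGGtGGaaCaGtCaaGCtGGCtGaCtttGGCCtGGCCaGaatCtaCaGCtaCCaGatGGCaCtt
The RB1 stretch holds 33.3% GC, that of CDK6 51.7% and that of CDK4 50.8%. In RB1 the whole coding sequence is poor in GC, at 39%, and the part after it is at 31.3%. In CDK6 the coding sequence is at 52%, like the 54.1% of CDK4, and the low value comes from the long part after it, at 37.1% GC in a transcript of 11612 bases. RB1 and CDK6 thus reached a similar GC content over the whole transcript in different ways.

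The comparison of siALDOA with NC asks whether knockdown of ALDOA went with a change in these genes. Over both lines none of the 12592 tested genes was called by limma (0%), and 43 genes (0.341%) had an unadjusted p under 0.05. Limma-voom on rebuilt counts called 0 as well, with 20 genes at an unadjusted p under 0.05. ALDOA itself thus went uncalled, though it was lower in every siALDOA library than in NC of its line. Smaller changes in the members could go uncalled too. None of the 8 tested members was called, each with an adjusted p of 1. Their log2 changes over both lines were 0 for MTAP (SE 0.354), -0.12 for CDKN1A (SE 0.184), -0.08 for CDKN1B (SE 0.329), -0.08 for CCND1 (SE 0.157), -0.10 for CCND3 (SE 0.189) and -0.08 for CDK4 (SE 0.178). CDK6 and RB1 had 0.80 (SE 0.851) and 0.81 (SE 1.15), and their standard errors exceed the changes. No member lay on the same side of NC in all 4 siALDOA libraries, where 3.39% of tested genes lay above in all 4 and 5.82% below. Without siALDOA 1 of 90 and siALDOA 2 of PANC-1 the changes of CDK6 and RB1 were -0.23 and -0.44.

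CCND1 was the only member whose siALDOA libraries moved 1 way in a line and the other way in the other line. It stood 0.14 and 0.15 log2 units above NC in siALDOA 1 and 2 of PANC-1, and 0.19 and 0.42 below NC in those of 90. Such opposite moves were found in 9.91% of tested genes. The difference of the siALDOA effects, PANC-1 minus 90, was 0.45 (SE 0.323, limma unadjusted p = 0.235, adjusted p = 1), and 0 genes were called for it (24, or 0.191%, at an unadjusted p under 0.05). Within PANC-1 and within 90 limma also called 0 genes (21, or 0.167%, and 33, or 0.262%, at an unadjusted p under 0.05), and limma-voom called 0 in all of these comparisons. Each of these changes rests on the lone NC library of its line.

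Of 24 other genes that act in G1, 23 were tested, with 4 called higher and 4 lower in PANC-1 by limma. All tested genes had 20.4% called higher and 18.4% lower, so the share of the list was near that of the table. Its median log2 difference was 0.12, against 0.13 over all tested genes. CDKN2C, an INK4 inhibitor gene on another chromosome, was at 54.6 FPKM in siALDOA 1, 46.3 in siALDOA 2 and 50.5 in NC of PANC-1. In 90 it was at 16.4 in siALDOA 1, 17.5 in siALDOA 2 and 19.5 in NC (log2 difference 1.45, SE 0.132, limma adjusted p = 0.00124). It was the best expressed of the INK4 genes in every library of both lines. CDKN2D, the last of the family, was at 6.37 to 7.41 FPKM in PANC-1 and 9.68 to 15.1 in 90 (-0.74, SE 0.207, adjusted p = 0.0435). CCNE1, the cyclin that drives CDK2 at the end of G1, was at 17 to 20.4 FPKM in PANC-1 and 9.25 to 10.6 in 90 (0.86, SE 0.149, adjusted p = 0.00938).

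E2F1 and E2F3 were not called between the lines (log2 differences 0.24 and 0.60, limma adjusted p = 0.290 and 0.343), and the E2F genes that were called split. E2F2, an activator, was at 3.12 to 3.82 FPKM in PANC-1 and 1.55 to 1.81 in 90 (log2 difference 0.78, SE 0.167, limma adjusted p = 0.019), and E2F5, a repressor, at 7.74 to 10.2 in PANC-1 and 2.36 to 3.64 in 90 (1.31, SE 0.213, adjusted p = 0.00772). E2F4, another repressor, was at 59.9 to 70.8 FPKM in PANC-1 and 79.7 to 104 in 90 (-0.50, SE 0.147, adjusted p = 0.0485). TFDP1, the dimer partner of E2F factors, was at 62.5 to 68.6 in PANC-1 and 146 to 167 in 90 (-1.26, SE 0.115, adjusted p = 0.00124). The calls of E2F2, E2F4, E2F5, CCNE1 and CDKN2D were lost without either NC library (adjusted p = 0.0626 to 0.251). Those of E2F4 and CDKN2D were also lost without siALDOA 2 of 90 or siALDOA 1 or 2 of PANC-1, and that of E2F2 without any 1 of the 4 siALDOA libraries (0.0561 to 0.164). Without either NC library 1 gene of the list was called higher and 2 lower. CDKN2C, CCND2 and TFDP1 kept their calls in all 20 alternatives, which reuse the same libraries. CCND2 passed the filter on low values only through 90, so its call and its persistence were largely fixed beforehand.

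Of the 18 genes of S phase entry, which E2F factors control, all were tested, with 2 called higher and 3 lower in PANC-1, no larger a share than the 38.8% of all tested genes. Their median log2 difference was -0.06, against 0.13 over all tested genes. TYMS, the thymidylate synthase gene, was at 128 FPKM in siALDOA 1, 96.3 in siALDOA 2 and 139 in NC of PANC-1, against 44.1 in siALDOA 1, 46.1 in siALDOA 2 and 56.6 in NC of 90 (log2 difference 1.28, SE 0.145, limma adjusted p = 0.00236). RRM2, a subunit of ribonucleotide reductase, was at 131 to 144 in PANC-1 and 79.1 to 105 in 90 (0.56, SE 0.152, adjusted p = 0.0394). CDC45 and GINS2, of the replicative helicase, and CDT1, which loads it, were lower, at -0.87 (SE 0.137), -0.85 (SE 0.177) and -0.80 (SE 0.179), with adjusted p of 0.00685, 0.0176 and 0.0212. Without either NC library the calls of RRM2, CDC45, GINS2 and CDT1 were lost (0.07 to 0.123), and 1 gene of the list was then called higher and 0 lower. Those of GINS2 and CDT1 were also lost without siALDOA 2 of either line, and that of RRM2 without any 1 of the 4 siALDOA libraries (0.0543 to 0.133).

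**Figure D5:**
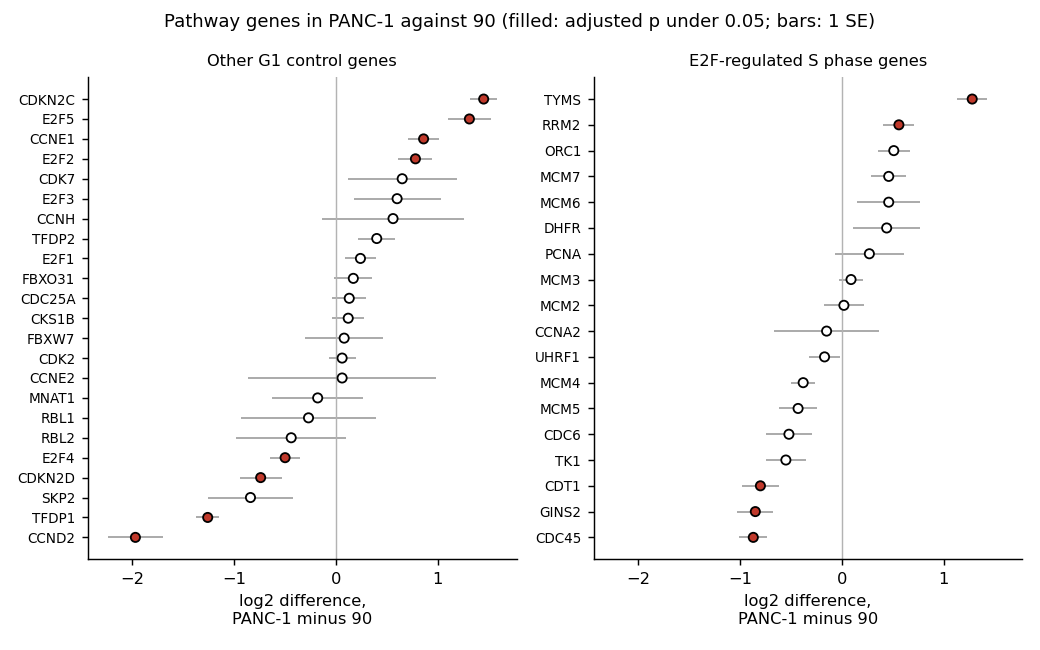
Log2 difference between PANC-1 and 90 for the tested genes of the lists of G1 control and S phase entry, with bars of 1 SE and filled points for genes called by limma. Filled points lie on both sides of 0 in both panels.

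With siALDOA no gene of these lists was called. The smallest p-values among G1 genes belonged to E2F4 (log2 change -0.14, SE 0.156) and CKS1B (-0.14, SE 0.169), and among S phase genes to TYMS (-0.32, SE 0.154) and MCM5 (-0.15, SE 0.200). Among the neighbours on chromosome 9 they belonged to RPS6 (-0.24, SE 0.125) and DENND4C (0.65, SE 0.632), each with a limma adjusted p of 1. In each line both siALDOA libraries had less TYMS than NC, as did 5.82% of all tested genes. TYMS was picked by its small p in these same libraries. Medians of the S phase list against NC were 0.09 and 0.01 in siALDOA 1 and 2 of PANC-1 and -0.20 and -0.18 in those of 90, with 13 and 9 of 18 genes above NC in PANC-1 and 4 and 5 in 90. Over all 12592 tested genes the medians were 0.02 and 0.03 in PANC-1 and -0.02 and 0 in 90. Of these genes, 6627 and 6662 lay above NC in PANC-1 and 5975 and 6334 in 90. Both medians of the S phase list in 90 rest on the lone NC library of that line, and neither was corrected for the GC trend. In siALDOA 1 and 2 of 90, genes close to CDKN1B in GC (within 2 percentage points) moved by 0 and -0.16 at the median. Those close to CCND1 moved by -0.09 and -0.05, and those close to CDKN1A by -0.24 and 0.08. The part of GC content and of the NC library in the lower medians of 90 was not tested.

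Some genes ran almost in step with a member once each line was centred on its mean. For CDKN1A the closest over the 6 libraries were GET4 (Pearson r 0.9997), DDB2 (0.9994) and PHKG2 (0.9992), and DDB2, a DNA damage recognition gene, was at 14.5 to 18.6 FPKM in PANC-1 and 32 to 37.9 in 90. For CCND1 they were ALG2 (0.9973), LYN (0.996) and SH2B3 (0.9897). For RB1 they were SASS6 (0.9997), CENPC (0.9995) and PPP2R3C (0.9994). SASS6, a centriole protein, was at 0.129 FPKM in siALDOA 1, 2.56 in siALDOA 2 and 1.48 in NC of PANC-1, and at 3.01 in siALDOA 1, 0.566 in siALDOA 2 and 0.0577 in NC of 90, the order seen for RB1. Among the members, RB1 and CDK6 correlated at 0.96, CDK4 and CCND3 at 0.96, and CDK4 and RB1 at -0.93. These values describe 6 libraries that share depth and the GC trend. For each member the 3 genes named are the highest of 12592 tested genes, and centring each line leaves few free values. An r near 1 is therefore expected from the search itself and does not show regulation in common.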

How the data were processed

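Poly(A) RNA of 6 libraries was analysed from 1 deposited table, in which the authors gave each gene 1 FPKM value per library. HISAT2, featureCounts and the build hg38 are named without versions in the submitters' processing notes; settings, strand use and gene lengths behind the deposited FPKM values are not given there. Of 41769 rows, 1 had no gene name, and 28 symbols had become dates. Values were taken as log2(FPKM + 1), which understates fold changes of low genes, and genes averaging 1 FPKM or more over the libraries (12592) were tested, 8 of the 10 members among them. Lines were compared in a limma fit (R 4.3.3, limma 3.58.1, intensity trend in the prior) with terms for line and siALDOA. Effects within a line, and their difference, came from a fit of 4 group means, where the lone NC library is assumed to vary like the others. Adjustment was by Benjamini-Hochberg over all tested genes, and genes were called at an adjusted p under 0.05. Low values fall on whole fragments, which gave the depth. Counts were then rebuilt with the smallest gene length that makes all libraries whole (tolerance 0.001 of a fragment), found for 100% of tested genes; a multiple of that length would scale all counts of a gene alike. Intervals are exact at 95%. The GC correction took a loess fit (span 0.3) against GC content of the longest GENCODE v29 transcript, known for 90.6% of tested genes, off each library relative to its line. Members were the genes listed by name. For a list, up to 4 called genes per direction with the largest difference are named, or the 2 smallest p-values where none was called. A list of pathway genes and 1 cell type marker are not reported here. Members, lists and the rule for naming genes were chosen with earlier results of these data known. The limma fit was tested on simulated data; the GC correction, the rebuilt counts and limma-voom were not. Alternatives were another pseudocount, 2 other filters, 3 scalings, GC correction, no trend, a replicate block, siALDOA libraries alone, each library left out, and 3 chosen after seeing the data.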

Additional observations from a re-analysis of the deposited data

Results flagged for a closer look

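CCND1 was flagged because its siALDOA libraries moved in opposite directions in the lines. Against NC of its line it changed by 0.14 and 0.15 log2 units in siALDOA 1 and 2 of PANC-1, and by -0.19 and -0.42 in those of 90. The difference between the effects had an unadjusted limma p of 0.235, and 9.91% of tested genes show such opposite moves.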

How the results depend on the processing

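Effects of siALDOA within a line rest on its lone NC library, and levels of a few fragments, as for CDKN2A and CDKN2B, allow no test between libraries. The count of genes called between PANC-1 and 90 (4882) was 2422 to 4110 with a library left out, 2423 with siALDOA libraries only and 3258 to 6267 in the other alternatives except the crossed block. Without a filter 49 genes were called for siALDOA within PANC-1 and 38 within 90, against 0; the count for both lines together and for the difference of the effects was 0 in every alternative fitted. The numbers 1 and 2 did not pair the libraries (correlations of deviations -0.39 for NC, -0.87 and -0.73; siALDOA 2 of PANC-1 and siALDOA 1 of 90 correlated at 0.89). The replicate block left the differences of CDKN1A, CDKN1B and CDK4 as they were (adjusted p = 0.208, 0.141 and 0.206; 3258 genes called), and with GC correction CDKN1A and CDK4 passed and CDKN1B did not (0.0263, 0.0326 and 0.0733; 5156 called). A crossed block, added after seeing the data, called 7594 genes and 3 of the 8 tested members, CDKN1A, CDKN1B and CDK4.

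Of the members, CDKN1A, CDKN1B, CCND3 and CDK4 kept their direction between the lines throughout. For CDKN1A, CDKN1B and CDK4, whose lines did not overlap, leaving out libraries could hardly turn it. CDK6 turned to -0.01 after median-ratio scaling, to -0.32 with siALDOA libraries only and to -0.00022 in limma-voom, CCND1 turned to 0.03 with siALDOA libraries only, and MTAP turned to 0.2 without siALDOA 1 of 90 and siALDOA 2 of PANC-1. With single libraries left out the differences ran from -0.48 to 0.15 for MTAP, -0.23 to 0.03 for CCND1, -0.46 to 0.8 for CDK6 and -1.43 to 0.52 for RB1. For siALDOA over both lines MTAP turned to -0.01 with a pseudocount of 0.1, -0.07 after quantile normalization and -0.19 with GC correction, and CDK4 to 0.00034 after quantile normalization. Without siALDOA 1 of 90 and siALDOA 2 of PANC-1, MTAP turned to -0.2, CDKN1A to 0.06, CCND3 to 0.09, CDK4 to 0.1, CDK6 to -0.23 and RB1 to -0.44. With single libraries left out the siALDOA changes ran from -0.25 to 0.23 for MTAP, -0.29 to 0.08 for CDKN1B, -0.3 to 0.15 for CCND1, -0.19 to 0.01 for CCND3 and -0.54 to 2.15 for RB1. The causes were not tested. Of the 19 named genes called between the lines, 11 lost the call in at least 1 of 20 alternatives, RRM2 in 14, E2F4 and PLIN2 in 12 and E2F2 and CDKN2D in 11.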
